A study of Onthophagus taurus and Onthophagus nigriventris with 71 samples.

Results

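The 40 probes described here were the ones with the highest thorax log ratios on the array of the horned beetle Onthophagus taurus among probes with head and leg log ratios near 0. For each of the 3840 probes, the deposited log ratio was averaged over the 12 head, the 12 thorax and the 12 leg arrays of O. taurus. Probes with head and leg means both between -0.5 and 0.5 were kept, which left 1849, and the 40 of these with the highest thorax mean were taken, 1.04% of all probes and 2.16% of those kept. The members were thus chosen by their head, thorax and leg means in O. taurus, and these are given as a description with no test. Tests were made on arrays that the choice did not use: the thorax of a second species, Onthophagus nigriventris, the brain, and heads of large and small males set against each other directly. The error of the brain tests, however, was pooled over all 48 O. taurus arrays fitted together, those that chose the members included. Differences between females and the male morphs in head, thorax and legs of O. taurus were fitted as well. These came from the same arrays that chose the members, as differences between classes that counted equally in the means, and a member that entered through 1 high array also shows a difference between classes.

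The series measured gene expression on 2-colour arrays, on each of which 2 RNA pools were hybridised together. In O. taurus, head, thorax and leg epidermis were each set against dorsal epidermis of the abdomen, a part without outgrowths, and the brain was set against neural ganglia. Each of these 4 tissues had 12 arrays, 4 each for females, large horned males and small males of the sneaker morph. In O. nigriventris the thorax epidermis was set against abdominal epidermis on 7 female, 5 large male and 7 small male arrays, and 4 further arrays set heads of large males against heads of small males of O. taurus. All beetles were unmanipulated wild-type pupae reared in the laboratory and taken within 24 h of pupation. Tissue of 4 individuals went into each pool, and females were not divided by size. The labels do not say whether the pools of a group were reared separately, so p-values refer only to the spread among these pools, which may be technical.

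A log ratio of 1 is a 2-fold difference if the values are in base 2, which is taken here because the submitters' processing notes name limma, a program that works in that base. A positive value most likely means more signal in the focal tissue than in its comparison tissue, since the design sets each focal tissue relative to the comparison tissue, but the sources used here do not state the numerator. If it were the other way, every sign below would turn. In dissected tissue, a larger share of cells that express a gene and more RNA per cell cannot be told apart. The array was designed for O. taurus, and values in O. nigriventris come from the same probes. Probes carry only identifiers: 0 of 3840 matched a table of 16956 O. taurus genes, so no gene name or sequence is given, several probes may report 1 gene, and the dissected tissues could not be checked against marker genes. The identifiers begin with OtL for 15 members and OtP for 25, against 1920 probes of each kind on the array, and the members came from 24 of 40 plates, with at most 4 on a plate.

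The upper side of the prothorax, the foremost segment of the thorax, is a site of horn growth in Onthophagus. Its epidermis grows out before pupation, and the outgrowth is then either kept or resorbed before the adult emerges. O. taurus pupae carry such a prothoracic horn, which the adults lose, and large males keep horns on the head. Large males of O. nigriventris keep a thoracic horn as adults. Legs are outgrowths of the epidermis as well, and beetle horns draw on genes that pattern legs.

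Thorax means of the members ran from 0.47 to 4.35 with a median of 0.53, whereas the median over all probes was 0.05. Head means of the members ran from -0.25 to 0.49 with a median of 0.30, and leg means ran from -0.42 to 0.47 with a median of 0.32. "Positive in thorax only" was therefore not what most members showed: head and leg means were both above 0.3 in 14 members and both above 0.2 in 21, while at least 1 of them was below 0 in 10. The thorax mean exceeded the larger of the head and leg means by a median of 0.19. That gap was above 0.2 in 18 members, above 0.5 in 5 and above 1 in 1. The set is therefore called by its rule, and it consisted of 1 probe with a large thorax signal and 39 with thorax means of at most 1.01.

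The lowest thorax mean inside the set was that of OtL007-B06 and the highest one left out was that of OtP001-D09, both 0.47. Near the upper bound for the head, OtL013-H10 was kept with a head mean of 0.49, and OtP005-H02, with a thorax mean of 0.56, was left out with a head mean of 0.50. OtL004-E03 was kept with a leg mean of 0.47, and OtL007-F07, with a thorax mean of 0.68, was left out with 0.50. Members thus stood next to probes of almost the same values at these edges. The lower bounds were less crowded. OtP009-E08 had both the lowest head mean, -0.25, and the lowest leg mean, -0.42, among the members. Nearest outside the lower bounds were OtP019-B09, with a thorax mean of 0.85 and a head mean of -0.53, and OtL009-H10, with a thorax mean of 0.58 and a leg mean of -0.53.

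Of the members, 29 were above 0 on all 12 thorax arrays, as were 795 of the 3840 probes. Thorax means were positive in both dye orientations in all 40 members. The mean of arrays with thorax RNA in Cy5 was the higher one in 20 members, and the difference between the orientations ran from -0.98 to 1.44 with a median of -0.00. The SD within a group of 4 thorax arrays had a median of 0.25 over the members, and 0.25 over all probes. Members were thus about as variable between pools as other probes.

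The leading member was OtL016-H05, with the fourth-highest thorax mean of all probes. Its log ratios were 5.10, 4.04, 6.48 and 2.37 in female thorax, 5.03, 2.30, 3.38 and 3.41 in large male thorax and 5.33, 5.45, 6.57 and 2.71 in small male thorax. In contrast, head values ran from 0.01 to 0.51 and leg values from -0.07 to 1.34. The lowest thorax array stood 0.96 above the highest head or leg array, and this was the case in no other member. The mean of 4.35 is a 20.4-fold difference between thorax and abdomen, and the lowest thorax array is a 4.92-fold one. Its gap of 3.96 between the thorax mean and the larger of the other means was second only to that of OtL014-H10, a probe outside the bounds with a gap of 5.80. The spread between pools was large as well, with an SD of 1.74 in females, 1.13 in large males and 1.64 in small males.

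The same probe was positive on all 19 arrays of O. nigriventris thorax. Values ran from 2.34 to 6.56 in females with a median of 5.71, and from 2.48 to 6.54 in small males with a median of 4.55. In large males they were 4.27, 2.23, 2.69, 1.69 and 5.38. The fitted mean over the 3 groups was 4.40 ± 0.32 (SE; limma, Benjamini-Hochberg adjusted p = 3.6e-10 over all probes), a 21.0-fold difference. The lowest array of O. nigriventris was a 3.23-fold one. Arrays with thorax RNA in Cy5 averaged 4.56 and those with it in Cy3 averaged 4.48. In the brain against ganglia the probe ran from -0.28 to 0.17, around a fitted mean of -0.03 ± 0.22 (limma, adjusted p = 0.931).

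Within the thorax, large males had the lowest mean of OtL016-H05 in both species. In O. nigriventris it was 3.25 ± 1.53 in large males (SD, n = 5), against 4.77 ± 1.48 in small males (n = 7), a fitted difference of -1.53 ± 0.79 (SE; limma, adjusted p = 0.723). In O. taurus it was 3.53 ± 1.13 in large males and 5.01 ± 1.64 in small males (SD, n = 4 each). The fitted difference there was -1.48 ± 0.53 (SE; limma, adjusted p = 0.579). The groups overlapped in both species, and neither difference passed the adjustment over all probes. Nor did the difference between the 2 morph contrasts, -0.06 ± 1.26 (limma, adjusted p = 0.999).

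No other member had a thorax mean near that of OtL016-H05. Likeness of pattern between members, apart from size, was not tested. The 4 female thorax arrays ranked alike in OtL016-H05 and the member OtL018-F01, but the large male and small male thorax arrays did not. The probes closest to OtL016-H05 over the 71 arrays, by the mean absolute difference of log ratios, were OtL001-B05 at 1.02, OtP012-E12 at 1.12 and OtP003-G08 at 1.26, none of them a member. OtL001-B05 missed the set by its head mean of 0.57, with a thorax mean of 2.55 and a leg mean of 0.20. OtP012-E12 missed it by its leg mean of -0.74, with a thorax mean of 3.67 and a head mean of -0.13. This head mean averaged unlike classes: 0.99 for large male heads, -1.23 for small male heads and -0.15 for female heads. The morphs overlapped between single head arrays, and their fitted difference, large minus small, was 2.22 ± 0.49 (SE; limma, adjusted p = 0.00223). Direct arrays of the 2 morphs gave 1.32 ± 0.15 for OtP012-E12 (limma, adjusted p = 0.0778), which did not pass. In O. nigriventris thorax OtL001-B05 had a fitted mean of 2.25 ± 0.24 (SE; limma, adjusted p = 2.11e-07) and OtP012-E12 one of 3.13 ± 0.21 (adjusted p = 1.3e-10). These probes were singled out after their values were seen, and no measure of likeness here says that they report the same gene.

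The next members had thorax means of 1.01 and lower. OtP009-A11, the second, was 0.91, 0.93, 0.90 and 1.04 in female thorax, 1.18, 1.19, 1.35 and 0.64 in large male thorax and 0.93, 0.80, 1.18 and 1.10 in small male thorax. The values were similar in the 3 classes, and its highest head array, at 0.96, reached into the range of its thorax arrays. In O. nigriventris thorax it was above 0 on 9 of 19 arrays, with a fitted mean of -0.21 ± 0.18 (SE; limma, adjusted p = 0.462).

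OtP008-E09 was 1.59, 0.96, 1.08 and 1.09 in female thorax, 1.0, 0.89, 0.75 and 0.87 in large male thorax and 1.01, 0.24, 0.99 and 0.53 in small male thorax. Its head mean of 0.48 was close to the bound, and its highest head array, 1.16, lay above 11 of its thorax arrays. OtP016-E05 was 0.86, 0.87, 0.86 and 0.88 in female thorax, 0.28, 0.55, 0.63 and 0.86 in large male thorax and 0.37, 1.23, 0.52 and 0.79 in small male thorax. Female pools were nearly identical in this probe, and 7 of the 8 male values lay below all of them. The highest of those 7, at 0.857, was barely below the lowest female value, 0.859. The fitted female minus male difference of OtP016-E05 was 0.21 ± 0.15 (SE; limma, adjusted p = 0.456). OtP017-G03 was 0.56, 0.44, 0.75 and 0.50 in female thorax, 0.53, 0.52, 0.48 and 0.48 in large male thorax and 0.71, 0.82, 0.89 and 0.77 in small male thorax. All large male values of OtP017-G03 lay below all small male values, and the fitted difference, large minus small, was -0.29 ± 0.15 (SE; limma, adjusted p = 0.859).

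Other members of the leading 10 were uneven between pools of the same group. OtL018-F01 was 0.68, 0.55, 2.54 and 0.33 in female thorax, 0.19, 0.28, 0.04 and 0.31 in large male thorax and 0.13, 2.12, 1.86 and 0.38 in small male thorax. Its mean of 0.78 rested on 3 arrays at 1.86 and above, and its median was 0.36. OtL006-F12 was 1.24, 1.69, 0.58 and 0.12 in female thorax, 0.46, 0.99, 1.31 and 0.06 in large male thorax and 0.75, 1.02, 0.52 and -0.28 in small male thorax. Each group of OtL006-F12 held a value near or below 0 beside one above 1.

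The remaining leading member of moderate spread, OtP014-E12, is given with the contrasts between classes. Lower in the set, OtP009-E08 had the fourth-largest gap, 0.79, because it was negative in head and legs. Its log ratios were 1.13, 0.27, 0.28 and -0.67 in female thorax, 0.45, 0.84, 1.09 and 0.47 in large male thorax and 0.62, 0.82, 1.04 and 0.11 in small male thorax. Its head values ran from -1.44 to 0.47 and its leg values from -1.15 to 0.20, so that thorax and other tissues overlapped between single arrays.

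In 2 members the thorax mean came from 1 array. OtP003-E11 was 5.78 on 1 large male array and between -0.14 and 0.37 on the other 11, so that its mean was 0.59 with that array and 0.11 without it. OtP014-E10, named because of a contrast below, was 6.32 on 1 female array. The other female values of OtP014-E10 were 0.28, 0.38 and 0.55, its large male values were 0.52, 0.10, 0.12 and 0.66, and its small male values were 0.07, 0.14, -1.34 and -1.40. The mean of OtP014-E10 was 0.53 with the high array and 0.0084 without it. With its own highest thorax array left out, the mean of 17 members fell below the full mean of the fortieth. Leaving out the highest array always lowers a mean, so members near that edge fall below it by construction. The count of 17 therefore does not say how many members rest on 1 array. When the list was made again with 1 of the 36 arrays left out, it shared 31 to 39 of the 40 members.

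The thorax of O. nigriventris, which took no part in the choice, was positive in 13 of the 40 members at an adjusted p under 0.05 (limma), 32.5% of them. Of all probes, 13.5% were called positive in that comparison. Only 1 member, OtL016-G11, was called negative there, against 12.2% of all probes. The median fitted value was 0.25 over the members and -0.00 over all probes, and 34 members were above 0, against 49.6% of all probes. The remaining 26 members passed in neither direction, with fitted values between -0.25 and 0.51. The series holds no head or leg arrays of O. nigriventris, so these values compare its thorax with its abdomen alone. Over the 13 members called positive, the O. taurus gap of thorax over head and legs ran from 0.00016 (OtL013-H10) to 3.96 (OtL016-H05). Arrays of O. nigriventris were less alike within a group than those of O. taurus thorax: correlations across probes between arrays of 1 group ran from -0.04 to 0.63, and from 0.78 to 0.94 in O. taurus. With only the 11 arrays that had thorax RNA in Cy5, 20 members were called positive, and with only the 8 that had it in Cy3, 4, a split chosen after seeing the data in which dye and number of arrays change together. The shares of all probes called in this split are not given here, so its counts are not results about the members.

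After OtL016-H05, the largest positive values in O. nigriventris thorax were those of OtL018-F01, 0.89 ± 0.18 (SE; limma, adjusted p = 0.000509), and OtP017-G03, 0.74 ± 0.22 (adjusted p = 0.0145). OtL018-F01 ran from 0.25 to 3.28 in females with a median of 1.32, was -0.82, 0.35, 1.0, 0.16 and 0.55 in large males, and ran from 0.39 to 1.42 in small males with a median of 0.71. It was above 0 on 18 of 19 arrays, and the groups overlapped. OtP017-G03 was above 0 on 15 of 19, between -0.44 and 2.83. The other members called positive were OtP016-B07 at 0.68, OtL017-E01 at 0.63, OtP010-F03 at 0.62, OtP009-E08 at 0.61 ± 0.12 (adjusted p = 0.000279), OtP013-H06 at 0.50, OtP018-A09 at 0.48, OtL017-G04 at 0.41, OtP016-E08 at 0.40, OtL004-E03 at 0.31 and OtL013-H10 at 0.30. In 2 of the members called positive the sign changed with the dyes: OtP013-H06 averaged 1.12 on arrays with thorax RNA in Cy5 and -0.13 on those with it in Cy3, and OtL004-E03 averaged 0.93 and -0.37. Of the 10 members with the highest O. taurus thorax means 3 were called positive, and of the other 30 members 10 were. A higher thorax mean in O. taurus thus did not go with more calls in O. nigriventris within the set.

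OtL016-G11 had opposite signs in the 2 species on every array. In O. nigriventris thorax it ran from -1.38 to -0.40 in females, from -1.17 to -0.18 in large males and from -1.95 to -0.32 in small males. In O. taurus thorax it was 0.75, 0.93, 1.04 and 0.72 in females, 0.71, 0.63, 0.97 and 0.23 in large males and 0.73, 0.66, 1.09 and 0.79 in small males. All 19 values in O. nigriventris were thus below all 12 in O. taurus. The fitted mean in O. nigriventris was -0.85 ± 0.11 (SE; limma, adjusted p = 2.35e-06), and its mean in O. taurus was 0.77. The difference between species was not tested, because the O. taurus mean chose the probe.

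The brain arrays, in which neither RNA pool was epidermis, gave 13 positive members, against 20.1% of all probes, and 4 negative ones, against 31.7% (limma, adjusted p under 0.05). The median fitted value was 0.10 over the members and -0.06 over all probes. OtL016-G11 had the largest value, 2.61 ± 0.13 (SE; limma, adjusted p = 2.78e-19), and its 12 brain arrays ran from 1.36 to 3.70. These ratios are over ganglia and those of the thorax over abdominal epidermis, so their sizes cannot be ranked. OtP013-H06 followed with 0.95 ± 0.09 (adjusted p = 1.06e-11), between 0.66 and 1.46 on the 12 arrays, and OtP009-A11 with 0.45 ± 0.11 (adjusted p = 0.000753), between -0.21 and 1.21. The most negative members were OtP018-A09 at -0.80 ± 0.09 (adjusted p = 2.85e-10), OtP008-E09 at -0.48 ± 0.11 (adjusted p = 0.000457) and OtL017-G04 at -0.25 ± 0.06 (adjusted p = 0.000294). All 12 brain values of OtP018-A09 lay between -1.04 and -0.51. Its values in O. nigriventris thorax ran from -0.15 to 1.09, above 0 on 17 of 19 arrays.

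Over both comparisons, 5 members were called positive in O. nigriventris thorax and in brain, 2 positive in that thorax and negative in brain, and OtL016-G11 negative in that thorax and positive in brain. A further 17 members passed in neither comparison. Shares of all probes in these joint classes are not given here, so the counts only describe the members. Fitted values were above 0 in 34 members in O. nigriventris thorax, against 49.6% of all probes. In brain they were above 0 in 26 members, against 40.3%.

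The morph contrast asked whether members differed between large and small males. In O. nigriventris thorax 0 members passed (limma), as did 0% of all probes. An unadjusted p under 0.05 was found in 266 of the 3840 probes and in 2 of the 40 members. The smallest p was that of OtP012-G06, which was -0.56, -0.90, 0.55, -2.43 and -0.88 in large males and ran from -0.79 to 1.0 in small males with a median of -0.01. The groups overlapped, and the fitted difference was -0.89 ± 0.37 (SE; limma, adjusted p = 0.706). In O. taurus thorax 0 members passed (limma), against 0.026% of all probes. There, 224 of the 3840 probes and 5 of the 40 members had an unadjusted p under 0.05. Without the 2 members whose mean came from 1 array, 4 members did. OtP014-E12 had the smallest p: it was 0.47, 0.40, 0.33 and -0.36 in large male thorax and 0.67, 1.14, 0.21 and 1.54 in small male thorax, a fitted difference of -0.67 ± 0.21 (SE; limma, adjusted p = 0.507). The 2 groups of OtP014-E12 overlapped through a single small male pool. The morph contrast of the 2 species differed in 0 members, as in 0% of all probes (limma). Of the 3840 probes 98 had an unadjusted p under 0.05, and 0 members did. The smallest p there was again that of OtP012-G06, with -1.01 ± 0.58 for O. nigriventris minus O. taurus (adjusted p = 0.997).

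Females against males gave 0 members in O. nigriventris thorax (limma), as 0% of all probes. Of the 3840 probes 145 had an unadjusted p under 0.05, and 2 of the 40 members did. OtL018-F01 had the smallest p, with a female minus male difference of 1.15 ± 0.37 (SE; limma, adjusted p = 1). In O. taurus thorax 0 members passed (limma), against 2.11% of all probes. There, 697 of the 3840 probes and 5 of the 40 members had an unadjusted p under 0.05. Without the 2 members whose mean came from 1 array, 4 members did. The nearest was OtP014-E10 with 2.02 ± 0.58 (SE; limma, adjusted p = 0.0522), which rests on the female array at 6.32, the one that brought it into the set. Without that array the difference was 0.54.

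Females against large males in O. taurus thorax gave 1 member, against 2.79% of all probes. This was OtP014-E12, at 0.95, 1.48, 0.79 and 0.98 in females, all above the 0.47, 0.40, 0.33 and -0.36 of large males, with a fitted difference of 0.84 ± 0.21 (SE; limma, adjusted p = 0.0238). The call was lost without 1 female array (adjusted p = 0.101) or without the large male array at -0.36 (adjusted p = 0.0997). Over the whole set, the female thorax mean was the highest of the 3 classes in 23 members, the large male mean in 9 and the small male mean in 8, against 44.5%, 29.1% and 26.5% of all probes. The large male mean was the lowest in 20 members, and in 42.6% of all probes.

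In head epidermis 1 member differed between large and small males, against 7.4% of all probes. OtP018-C05 was 0.01, -0.50, -0.17 and 0.41 in large male heads and 0.36, 0.78, 0.21 and 0.54 in small male heads, and the groups overlapped. The fitted difference was -0.53 ± 0.17 (SE; limma, adjusted p = 0.0483). On the 4 arrays that set the heads against each other directly, the same probe was -0.38 ± 0.17 for large over small males (limma, adjusted p = 0.317), with values from -0.82 to -0.07. On those direct arrays 0 members passed (limma), against 0.234% of all probes. An unadjusted p under 0.05 was found in 694 of the 3840 probes and in 4 of the 40 members. The smallest p was that of OtL006-F12, -0.56 ± 0.19 (adjusted p = 0.231).

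Females against large males differed in the head in 1 member, against 9.61% of all probes. OtP009-A11 was -0.25, -0.74, -0.28 and -0.12 in female heads and 0.71, 0.43, 0.67 and 0.02 in large male heads. The groups did not overlap, and the fitted difference was -0.81 ± 0.27 (SE; limma, adjusted p = 0.0489). Small male heads were -0.43, -0.31, 0.96 and 0.0037. The head mean near 0 of OtP009-A11 thus averaged females below 0, large males above 0 and small males on both sides. Its thorax values showed no such split between females and large males, with a difference of -0.15 ± 0.27 (limma, adjusted p = 0.804). Whether the head and thorax differences differ was not tested. The call on OtP018-C05 and the call on OtP009-A11 were each lost in 6 of the 8 fits that left out 1 array. In legs, 0 members differed between females and males (limma), against 0.208% of all probes. An unadjusted p under 0.05 was found in 460 of the 3840 probes and in 4 of the 40 members. OtP009-H02 had the smallest p, with 0.36 ± 0.11 (adjusted p = 0.185).

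Among the members, the closest pair over the 71 arrays was OtP010-F03 and OtP016-B07, with a mean absolute difference of 0.246. Their group means were -0.35 and -0.48 in female heads, 0.21 and 0.24 in large male heads and -0.40 and -0.36 in small male heads. Single arrays of the classes overlapped, and neither the large minus small male difference (limma, adjusted p = 0.0638 and 0.194) nor the female minus large male difference (adjusted p = 0.0839 for each probe) passed in the head. In O. taurus thorax OtP010-F03 was 0.57, 0.67, 0.77 and 0.30 in females, 0.82, 0.84, 0.65 and 0.59 in large males and 0.54, -0.05, 0.16 and 0.78 in small males. OtP016-B07 was 0.30, 0.35, 0.71 and 0.61 in females, 0.87, 1.09, 0.80 and 0.74 in large males and 0.23, 0.03, 0.11 and 0.50 in small males. All large male values of OtP016-B07 thus lay above its small male values, with a fitted difference of 0.66 ± 0.27 (SE; limma, adjusted p = 0.681). In O. nigriventris thorax the fitted values of the pair were 0.62 ± 0.11 and 0.68 ± 0.12 (SE; limma, adjusted p = 9.38e-05 and 0.000126), and in brain 0.37 and 0.30. The next pairs were OtP016-E08 with OtP018-H08, at 0.255, and OtL018-C12 with OtL004-E03, at 0.256. Of these 3 pairs, only OtP010-F03 and OtP016-B07 had both probes negative in the head on average, at -0.18 and -0.20. Both were positive in legs, with means of 0.39 and 0.46 against thorax means of 0.55 and 0.53.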

How the data were processed

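The values are normalised log ratios, 1 per probe and array, deposited by the authors and read as log2. The submitters' processing notes name limma. For its version, the background correction and the normalisation, nothing is stated in the sources used here. All 71 columns were mapped to samples, and 0 were left unmapped. Depth does not apply to arrays, and their number limits the precision.

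Within groups, 81 of 82 pairs of arrays of opposite dye orientation correlated above 0 across probes, so the ratios already ran 1 way and were not turned. Array medians ran from -0.17 to 0.17. Probes were fitted with limma 3.58.1 (lmFit and eBayes, R 4.3.3), with a mean per group and a dye term. The 48 O. taurus arrays, the 19 O. nigriventris arrays, the 4 direct arrays and the 31 thorax arrays of both species were fitted separately. Each fit had 1 spread per probe over all its arrays, so SEs and p-values in O. taurus pool the spread of all tissues. P-values were adjusted by Benjamini-Hochberg over all 3840 probes, with a threshold of 0.05. The fits were tested on simulated data.

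The members and lists were chosen with earlier results of these data known. Probes named were the 10 highest in thorax; in each contrast the 3 largest called members of each sign, or the member with the smallest p where none was called; those at the edges of the rule; and the 3 closest pairs. Alternatives were centring or scaling each array, no dye term, a replicate block, array weights, fits of the compared groups alone, other bounds and leaving out each array. No array replicate numbers were treated as pairs.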

Additional observations from a re-analysis of the deposited data

Results flagged for a closer look

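Of 60 groups of 4, 5 or 7 thorax arrays tested for the leading 10 members, 5 held an array far from the others. Chance alone gives about 1 in 20 for probes not chosen by these values. That rate does not hold for the O. taurus groups, where a single high thorax array favoured the choice of a probe. OtL018-F01 was 2.54 on 1 female thorax array of O. taurus and 0.33 to 0.68 on the other 3. OtP003-E11 was 5.78 on 1 large male thorax array of O. taurus and -0.10 to 0.15 on the other 3. OtL016-G11 was -1.95 on 1 small male array of O. nigriventris and -0.95 to -0.32 on the rest. OtP016-E05 was -1.35 on 1 female array of O. nigriventris, against -0.14 to 0.77 on the rest, and -0.75 on 1 large male array, against 0.56 to 0.89 on the rest.

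In 3 members a difference between groups passed the test: OtP014-E12 in the thorax, female minus large male (0.84), OtP018-C05 in the head, large minus small male (-0.53), and OtP009-A11 in the head, female minus large male (-0.81). Each was 1 of the 40 members in its contrast, against 2.79%, 7.4% and 9.61% of all probes. With 1 array left out in turn, these calls were lost in 2, 6 and 6 of 8 fits. All 3 contrasts used O. taurus arrays that had also chosen the members. OtL016-G11 was below 0 on every thorax array of O. nigriventris, with a mean of -0.83, and above 0 on every thorax array of O. taurus, with a mean of 0.77. This difference between species was not tested.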

How the results depend on the processing

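No named result reversed. In O. nigriventris thorax 13 members were positive and 1 negative. With only the arrays that had thorax RNA in Cy5, a split chosen after seeing the data, the counts were 20 and 2, and with only those that had it in Cy3, 4 were positive. Then OtL018-F01 (0.65, limma adjusted p = 0.0725) and OtP017-G03 (0.48, 0.235) no longer passed. With array weights, 2 members passed for female minus male thorax, 6 for female minus large male thorax, 2 for female minus large male heads and 1 for legs. With each array scaled, 0 passed for female minus large male thorax, for large minus small male heads and for female minus large male heads, as with only the compared groups fitted. Centring each array also gave 0 for large minus small male heads. The cause was not tested. The share of all probes called under each alternative is not given here, so changed counts are not results about the members. Leaving out each array in turn gave 10 to 15 positive and 1 to 1 negative in O. nigriventris thorax, 11 to 13 positive and 4 to 5 negative in brain, and, in O. taurus, 0 to 1 for large minus small male thorax (1 without small male replicate 4), 0 to 2 for female minus male thorax, 0 to 2 for female minus large male thorax (0 without female replicate 2 or large male replicate 4), 0 to 2 for large minus small male heads and 0 to 3 for female minus large male heads. The remaining counts stayed at 0.

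Between classes of the same tissue, replicate numbers did not in general pair the arrays (in 1 of 13 comparisons every pair correlated above 0.1; range -0.40 to 0.56). The exception was female against small male thorax of O. taurus, at 0.19 to 0.44. Pairing between tissues was not tested. With a replicate block, O. nigriventris thorax had 10 positive members and 1 negative, and brain 12 and 4. Of the 40 members, 24 were shared after centring, 34 after scaling, 22 with bounds of 0.4, 11 with bounds of 0.6 and 31 to 39 with 1 array left out, and OtL016-H05 led each of the 36 lists with 1 array left out.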
